A study of Arabidopsis thaliana with 18 samples.

Results

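IAA31 and AGL71 are Arabidopsis thaliana transcription regulators that the study placed among root genes which changed after 10 days of phosphate (Pi) starvation and changed back when Pi returned. They were taken as the probe-sets that the array's annotation gives to IAA31 (AT3G17600) and to AGL71 (AT5G51870) alone, which left 1 probe-set for each, 258352_at and 248374_at, and thus 2 genes of the 13356 that had such a probe-set. Levels were read on 18 ATH1 arrays, short-oligonucleotide arrays that report 1 log2 signal per probe-set, with 3 biological replicates in each of 6 groups. All plants were wild-type Col-0 grown hydroponically, for 20 days in full MGRL medium before treatment. Mock plants stayed in full medium for another 10 days. Starved plants spent those 10 days in medium whose 1.75 mM sodium phosphate had been replaced by MES. Replete plants were starved for 10 days and then returned to full medium for 3 days. Root and shoot were collected separately, at an age of 30 days in mock and starved plants and of 33 days in replete plants, so replete and mock plants differed in age as well as in history. The starved minus mock difference is called the response, and the replete minus starved difference the recovery. Both use the same starved arrays.

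IAA31 belongs to the Aux/IAA proteins, nuclear repressors that bind auxin response factors and hold auxin-induced genes silent. Auxin joins most Aux/IAA proteins to TIR1/AFB receptors through a short degron, after which the repressor is destroyed. IAA31 and its close relatives IAA20 and IAA30 carry an altered degron or none, and are longer-lived than most of the family. AGL71 is a MADS-box transcription factor of the SOC1 clade, whose members SOC1, AGL42, AGL71 and AGL72 are known for promoting flowering at the shoot apex and in axillary meristems. Roots short of Pi change their architecture, and auxin signalling is known to take part in that change.

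The organs carried the marker genes of their labels. In mock plants the 3 measured green tissue markers of 8 listed were lower in roots on the log2 scale (LHCB4.1, RCA and PRK at -6.33, -7.12 and -8.86), and the 3 root markers PYK10, EXPA18 and EXPA7 were higher by 4.12, 4.19 and 5.05. None of the 5 dividing cell markers listed had a probe-set of its own in the annotation used here. That annotation left 8794 probe-sets without a gene, so a gene missing from it may still be on the array. On the first principal component of the root arrays, which held 52.5% of the variance, starved replicates 1 and 2 scored 52.1 and 49.5, and starved replicate 3 scored 23.3, nearer to the mock arrays at -11.2, -14.7 and -18.7. Shoot starved replicate 3 stood apart in the same way, at 13.3 against 34.3 and 34.4. For the pair, and in roots for its closest relatives and for each list gene whose call turned on them, values without these arrays are given with the values from all 18 arrays.

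In roots the pair moved in opposite directions. IAA31 was higher in every starved root than in every mock root and lower again in every replete root, whereas AGL71 was lower in every starved root and higher again after Pi returned. The study chose both genes for this root pattern on these same arrays, so the root values are described without a test, each with its standard error (SE) in the model.

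The log2 signal of IAA31 in roots was 3.11, 3.11 and 2.96 in mock, 3.49, 3.77 and 3.69 in starved, and 2.79, 2.88 and 2.83 in replete replicates 1 to 3. The groups did not overlap, and the starved arrays were the highest of all 18. The response was 0.59 ± 0.10 (SE, n = 3 and 3), a 1.51-fold higher signal, and the recovery was -0.82 ± 0.10. Replete minus mock roots was -0.23 ± 0.10, with no overlap of the arrays, as for 11.1% of probe-sets in that direction.

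AGL71 in roots read 6.14, 6.15 and 6.38 in mock, 5.53, 5.45 and 5.38 in starved, and 6.37, 6.34 and 6.30 in replete replicates 1 to 3. The starved arrays were below all others from roots, while the replete arrays lay within the range of the mock arrays. The response was -0.77 ± 0.11 (SE, n = 3 and 3), a signal 0.586 times that of mock roots, and the recovery was 0.88 ± 0.11, or 1.85-fold. Replete roots differed from mock roots by 0.11 ± 0.11.

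The root starved array that stood apart did not stand apart for this pair. On that array IAA31 (3.69) lay between the other starved replicates and AGL71 (5.38) was the lowest of them. Without it the responses were 0.57 ± 0.11 for IAA31 and -0.73 ± 0.13 for AGL71, and the recoveries were -0.80 ± 0.11 and 0.85 ± 0.13. As background to these values, 2.26% of the 22810 probe-sets were called in the root response and 5.12% in the root recovery, at a Benjamini-Hochberg adjusted p of at most 0.001. Starved and mock roots did not overlap for 16% of probe-sets in the higher direction and for 10.2% in the lower. The same shares for replete against starved roots were 14.8% higher and 21.8% lower. A pattern of higher in the response and lower in the recovery, which the study terms an initial positive response, was called for 309 probe-sets (1.35%), and the reverse pattern, its initial negative response, for 110 (0.482%).

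**Figure D1:**
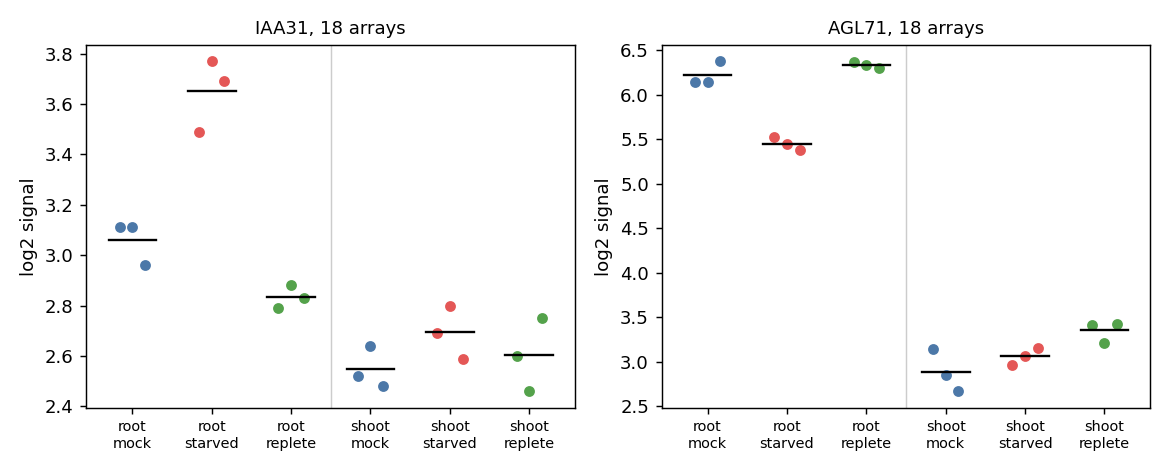
Log2 signal of IAA31 (left) and AGL71 (right) on each of the 18 arrays, by organ and condition; points are arrays and bars are group means (n = 3), and the axes do not start at 0. IAA31 is highest in starved roots (3.49 to 3.77), and AGL71 in starved roots (5.38 to 5.53) lies below the mock and replete roots but above every shoot array.

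Markers of other cells moved in the same roots. Of the green tissue and root markers above, none was called in the root response. There 1 of 3 green tissue and 1 of 3 root markers had an unadjusted p under 0.05, beside 23.1% of all probe-sets. In the root recovery the light-harvesting gene LHCB4.1 rose by 1.23 ± 0.16 (adjusted p = 4.67e-05), and the root hair expansins EXPA7 and EXPA18 fell by 1.2 ± 0.20 (adjusted p = 0.000417) and by 1.43 ± 0.15 (adjusted p = 4.99e-06). The other markers did not all share these signs: PRK was at -0.59, RCA at 0.46 and PYK10 at 0.16, none of them called. In this contrast 3 of 3 green tissue and 2 of 3 root markers had an unadjusted p under 0.05, beside 37.9% of all probe-sets. The call of EXPA7 was lost (adjusted p = 0.00126) without root starved replicate 3 and on leaving out any of the other root starved or root replete arrays. Without root starved replicate 3 LHCB4.1 rose by 1.32 ± 0.18 and EXPA18 fell by 1.5 ± 0.17, and both were still called. The log2 of the summed green tissue signal ran from 7.03 to 7.69 in mock, 6.72 to 7.18 in starved and 7.77 to 8.15 in replete roots, against 14.01 to 14.25 over all shoot arrays. The summed root marker signal, in which PYK10 dominates, was 12.28 to 12.46, 12.25 to 12.39 and 12.12 to 12.42 in the same root groups. The part of these shifts in the recovery of IAA31 and AGL71 was not tested. In whole organs, fewer cells that express a gene and less RNA per cell cannot be told apart.

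In shoots neither gene passed the threshold in any contrast. The shoot arrays had no part in the choice of the genes and were tested. The threshold was an adjusted p of at most 0.001 in limma's moderated test, which 0.399% of probe-sets met in the shoot response, 0.706% in the shoot recovery and 0.0219% in replete minus mock shoots.

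IAA31 in shoots read 2.52, 2.64 and 2.48 in mock, 2.69, 2.80 and 2.59 in starved, and 2.60, 2.46 and 2.75 in replete replicates 1 to 3. The groups overlapped in every comparison. The response was 0.15 ± 0.10 (95% interval -0.06 to 0.35, adjusted p = 0.506) and the recovery was -0.09 ± 0.10 (interval -0.30 to 0.12, adjusted p = 0.639). Replete minus mock shoots was 0.06 ± 0.10 (interval -0.15 to 0.26, adjusted p = 0.816). Over fits that each left out 1 array the response ran from 0.093 (without shoot starved replicate 2) to 0.198 (without shoot starved replicate 3, adjusted p = 0.381), and the recovery from -0.163 (without shoot replete replicate 3) to -0.018 (without shoot replete replicate 2). Without shoot starved replicate 3 the recovery was -0.14 ± 0.11 (adjusted p = 0.476).

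AGL71 in shoots read 3.15, 2.85 and 2.67 in mock, 2.96, 3.07 and 3.16 in starved, and 3.42, 3.21 and 3.43 in replete replicates 1 to 3. The starved arrays overlapped the mock arrays, whereas all replete arrays were above all mock and all starved arrays. The response was 0.17 ± 0.11 (95% interval -0.07 to 0.41, adjusted p = 0.495) and the recovery was 0.29 ± 0.11 (interval 0.05 to 0.53, adjusted p = 0.127). Replete shoots exceeded mock shoots by 0.46 ± 0.11, a 1.38-fold signal (interval 0.22 to 0.70, adjusted p = 0.04), which did not meet 0.001. A separation of this kind, with all replete arrays above all mock arrays, was seen for 10.9% of probe-sets, and with all replete arrays above all starved arrays for 13.3%. Over fits that each left out 1 array the response ran from 0.063 (without shoot mock replicate 3) to 0.303 (without shoot mock replicate 1). Without shoot starved replicate 3 the response was 0.125 ± 0.13 (adjusted p = 0.705) and the recovery 0.34 ± 0.13 (adjusted p = 0.112).

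**Figure D2:**
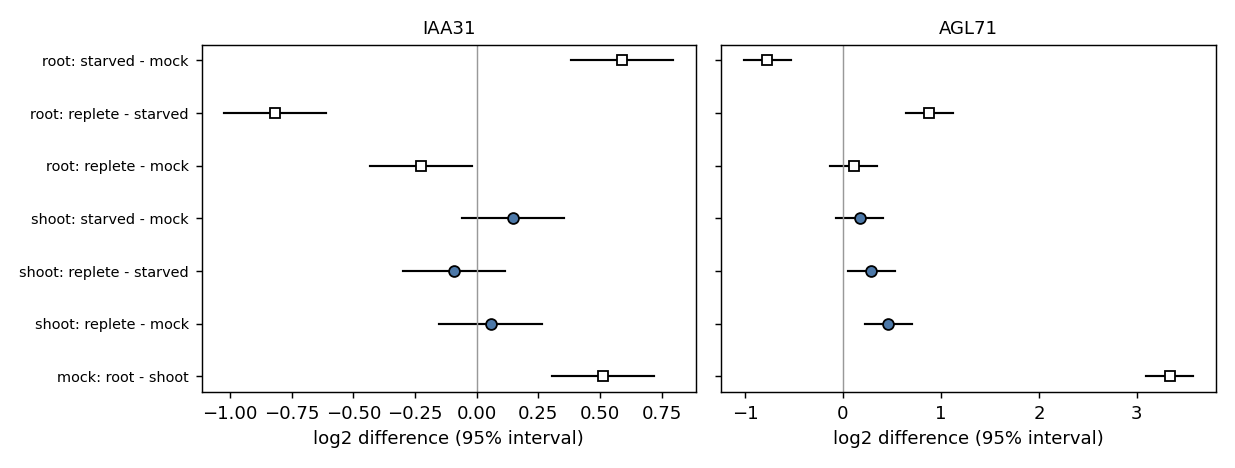
Log2 differences of IAA31 (left) and AGL71 (right) in 7 comparisons, with the 95% interval of the fit over 18 arrays; open squares mark comparisons given with no test, filled circles mark tested ones, and the panels have different horizontal scales. The shoot response intervals of both genes cross 0, and the interval of AGL71 in mock roots minus mock shoots runs from 3.09 to 3.57.

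AGL71 had a far higher signal in roots than in shoots. In mock plants its signal was higher in roots than in shoots by 3.33 ± 0.11 on the log2 scale (95% interval 3.09 to 3.57), or 10.1-fold, and that of IAA31 by 0.51 ± 0.10 (interval 0.31 to 0.72), or 1.43-fold. All mock root arrays were above all mock shoot arrays for both genes, as for 38.7% of probe-sets. The root mock arrays of this comparison were also part of the contrast on which the genes were chosen, so these values too are a description with no test. At an adjusted p of at most 0.001 the organs differed for 42.7% of all probe-sets, 24.4% higher in roots and 18.3% lower.

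The measured ratio between organs was not the same in mock, starved and replete plants, and replete plants were also older. AGL71 was 5.24-fold higher in starved roots than in starved shoots and 7.91-fold higher in replete roots than in replete shoots. IAA31 was 1.94-fold higher in starved and 1.17-fold higher in replete roots than in the matching shoots. These ratios are a description with no test, since they rest on the root arrays used in the choice.

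Ordered by level, AGL71 ran from replete roots (mean 6.34 ± 0.04 SD) to mock roots (6.22 ± 0.14), starved roots (5.45 ± 0.08), replete shoots (3.35 ± 0.12), starved shoots (3.06 ± 0.10) and mock shoots (2.89 ± 0.24, n = 3 each). The neighbours in this order that overlapped were replete with mock roots, and starved with mock shoots. For IAA31 the order was starved roots (3.65 ± 0.14), mock roots (3.06 ± 0.09), replete roots (2.83 ± 0.05), starved shoots (2.69 ± 0.11), replete shoots (2.60 ± 0.15) and mock shoots (2.55 ± 0.08). Replete roots overlapped starved shoots for IAA31, and the shoot groups overlapped each other.

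IAA31 was a dim probe-set. Its mean over the 18 arrays, 2.90, lay among the dimmest 25% of probe-sets, whose limit was 3.79, and between 7.9% and 27.3% of probe-sets lay below it on an array. For AGL71 that share was 12.1% to 55.6%, with the low end in shoots. Whether either signal exceeded the background of its array was not tested, because the deposited table holds no detection calls. Among the dimmest 25% by mean, 0.806% were called in the root response and 1.53% in the root recovery.

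Among the other Aux/IAA genes, none passed in the root or shoot response or recovery. Of 28 others listed, 6 had a probe-set of their own in the annotation used here (IAA18, IAA20, IAA29, IAA30, IAA33 and IAA34). By limma, the counts of the 6 with an unadjusted p under 0.05 were 3 in the root response, 2 in the root recovery, 1 in the shoot response and 1 in the shoot recovery. Over all probe-sets 23.1%, 37.9%, 17.2% and 23.6% had such a p in these comparisons. Their root responses ran from -0.30 to 0.29 with a median of 0.22, beside a median of 0.03 over all probe-sets, and their root recoveries ran from -0.38 to 0.17 with a median of -0.15 beside -0.05.

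The nearest relatives of IAA31 had small values. IAA20 read 3.81, 3.94 and 3.83 in mock roots and 4.28, 3.99 and 4.08 in starved roots, a response of 0.26 ± 0.11 (adjusted p = 0.185), and its recovery was -0.24 ± 0.11 (adjusted p = 0.128). All starved arrays of IAA20 were above all mock arrays, as for 16% of probe-sets. IAA30 had a root response of the other sign, -0.30 ± 0.11 (adjusted p = 0.113), with 3.78, 4.15 and 4.18 in mock roots and 3.77, 3.72 and 3.73 in starved roots. Its recovery was 0.17 ± 0.11 (adjusted p = 0.286). Without root starved replicate 3 the responses were 0.275 ± 0.13 for IAA20 and -0.29 ± 0.13 for IAA30, and the recoveries -0.26 ± 0.13 and 0.165 ± 0.13, none of which passed.

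IAA34 gave the highest root response of the 6, 0.29 ± 0.10 (adjusted p = 0.0734), a root recovery of -0.33 ± 0.10 (adjusted p = 0.019) and shoot values of the opposite sign, -0.27 ± 0.10 (adjusted p = 0.153) in the response and 0.32 ± 0.10 (adjusted p = 0.0493) in the recovery. It is singled out here from its values. Its root response was 0.345 ± 0.11 (adjusted p = 0.046) and its root recovery -0.39 ± 0.11 (adjusted p = 0.013) without root starved replicate 3. In mock plants IAA33 was higher in roots by 1.26 ± 0.25 (adjusted p = 0.000228), and IAA18 and IAA29 were lower by 0.65 ± 0.13 (adjusted p = 0.000239) and 2.01 ± 0.31 (adjusted p = 1.81e-05). IAA20, IAA30 and IAA34 did not pass in that comparison, where 42.7% of all probe-sets were called. The calls of IAA18 and IAA33 were lost on leaving out single mock arrays, with adjusted p values up to 0.00201 for IAA18 without shoot replicate 3 and up to 0.00196 for IAA33 without shoot replicate 2.

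The auxin pathway could be followed only in part. In the annotation used here, no probe-set was given alone to any of the 23 auxin response factors listed. The same held for the 7 auxin receptors and corepressor and the 7 auxin transport genes listed, so these are not analysed here. The study reported the auxin response factor ARF9 as up-regulated in starved roots. Of 10 auxin-induced targets 6 were measured: the auxin-conjugating GH3.1, GH3.3, GH3.5 (listed as WES1) and GH3.17, and the lateral root regulators LBD16 and LBD29. None passed in the root or shoot response or recovery, where 2, 2, 1 and 2 of the 6 had an unadjusted p under 0.05 in the root response, root recovery, shoot response and shoot recovery, beside the shares of all probe-sets above. The lowest root response of the 6 was that of GH3.3, chosen here from its value, which read 3.96, 4.17 and 4.1 in mock, 3.22, 2.65 and 3.5 in starved and 3.86, 3.70 and 3.95 in replete roots. Every starved array of GH3.3 was below every mock array, as for 10.2% of probe-sets, and below every replete array, as for 14.8%. The response of GH3.3 was -0.95 ± 0.18 (adjusted p = 0.00235) and its recovery was 0.71 ± 0.18 (adjusted p = 0.0085). Without root starved replicate 3 the response of GH3.3 passed, at -1.14 ± 0.18 (adjusted p = 0.000453), and its recovery was 0.90 ± 0.18 (adjusted p = 0.00157). In mock plants GH3.17, LBD16, LBD29 and GH3.5 were higher in roots by 1.38 to 3.65 and GH3.3 was lower by 1.27 (adjusted p = 8.08e-06). Of all probe-sets, 24.4% were called higher and 18.3% lower in roots there.

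**Figure D3:**
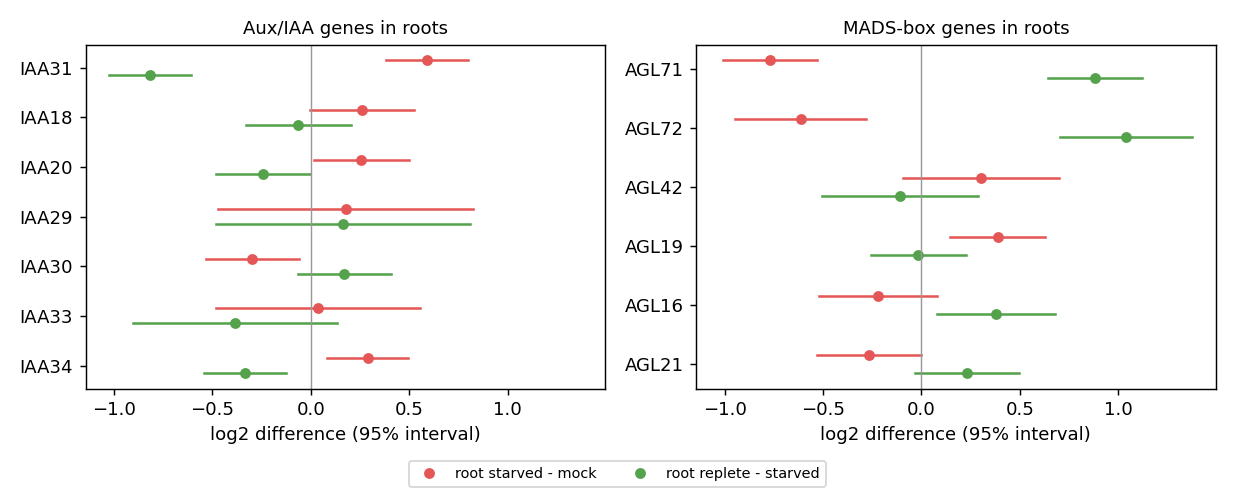
Log2 differences in roots for IAA31 and the 6 other measured Aux/IAA genes (left) and for AGL71 and 5 other MADS-box genes (right), starved minus mock in red and replete minus starved in green, with 95% intervals from the fit over 18 arrays; both comparisons share the starved arrays. AGL72 has the same signs as AGL71, -0.61 and 1.04, and the intervals of IAA29 and IAA33 cross 0 in both comparisons.

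In the SOC1 clade, AGL72 alone among the 3 relatives measured (AGL72, AGL42 and AGL19) was called in roots, in the recovery. SOC1 and AGL14 had no probe-set of their own in the annotation used here. AGL72 (AT5G51860) is the gene next to AGL71 on chromosome 5 in the RefSeq annotation. Its root signal was 4.51, 4.54 and 4.91 in mock, 4.42, 3.94 and 3.76 in starved, and 5.03, 5.03 and 5.18 in replete replicates 1 to 3. All starved arrays were below all mock arrays, as for 10.2% of probe-sets, and all replete arrays were above all starved arrays, as for 14.8%. The response of AGL72 was -0.61 ± 0.16 (adjusted p = 0.0199), which did not pass, and its recovery was 1.04 ± 0.16, a 2.06-fold rise (adjusted p = 0.000201). The recovery call was lost without root starved replicate 2 (0.99, adjusted p = 0.00181) or root replete replicate 3 (0.99, adjusted p = 0.00172) and in a fit of root arrays alone (adjusted p = 0.00267). Without root starved replicate 3 it was 0.90 ± 0.16 (adjusted p = 0.000839) and the response was -0.47 ± 0.16 (adjusted p = 0.0735). In shoots AGL72 read between 2.43 and 2.89 on all 9 arrays, and its response (0.12 ± 0.16, adjusted p = 0.803) and recovery (0.07 ± 0.16, adjusted p = 0.832) did not pass. AGL71 and AGL72 are similar genes, and whether their probe-sets also bind each other's transcript was not tested.

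AGL42 and AGL19 did not have the sign of AGL71 in the root response. AGL42 read 8.30, 8.28 and 8.08 in mock and 8.59, 8.51 and 8.47 in starved roots (0.30 ± 0.19, adjusted p = 0.365), and its recovery was -0.11 ± 0.19 (adjusted p = 0.702). AGL19, whose product is known to promote flowering, read 6.99, 7.14 and 7.23 in mock and 7.37, 7.54 and 7.61 in starved roots (0.39 ± 0.11, adjusted p = 0.0414), with a recovery of -0.02 ± 0.11 (adjusted p = 0.931). For both genes all starved root arrays were above all mock root arrays, as for 16% of probe-sets, without meeting 0.001. With root starved replicate 3 left out, the responses were 0.33 ± 0.21 for AGL42 and 0.335 ± 0.13 for AGL19, and the recoveries -0.14 ± 0.21 and 0.035 ± 0.13.

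All 3 relatives were higher in mock roots than in mock shoots, as AGL71 was: AGL42 by 4.55 ± 0.19 (adjusted p = 4.41e-13), AGL72 by 2.09 ± 0.16 (adjusted p = 2.35e-09) and AGL19 by 2.0 ± 0.11 (adjusted p = 4.3e-11). In that comparison 24.4% of all probe-sets were called higher in roots. In replete minus mock shoots, where AGL71 was 0.46 higher, AGL19 was higher by 0.67 ± 0.11 (adjusted p = 0.0118), AGL42 by 0.33 ± 0.19 (adjusted p = 0.364) and AGL72 by 0.19 ± 0.16 (adjusted p = 0.565). None met the threshold.

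**Figure D4:**
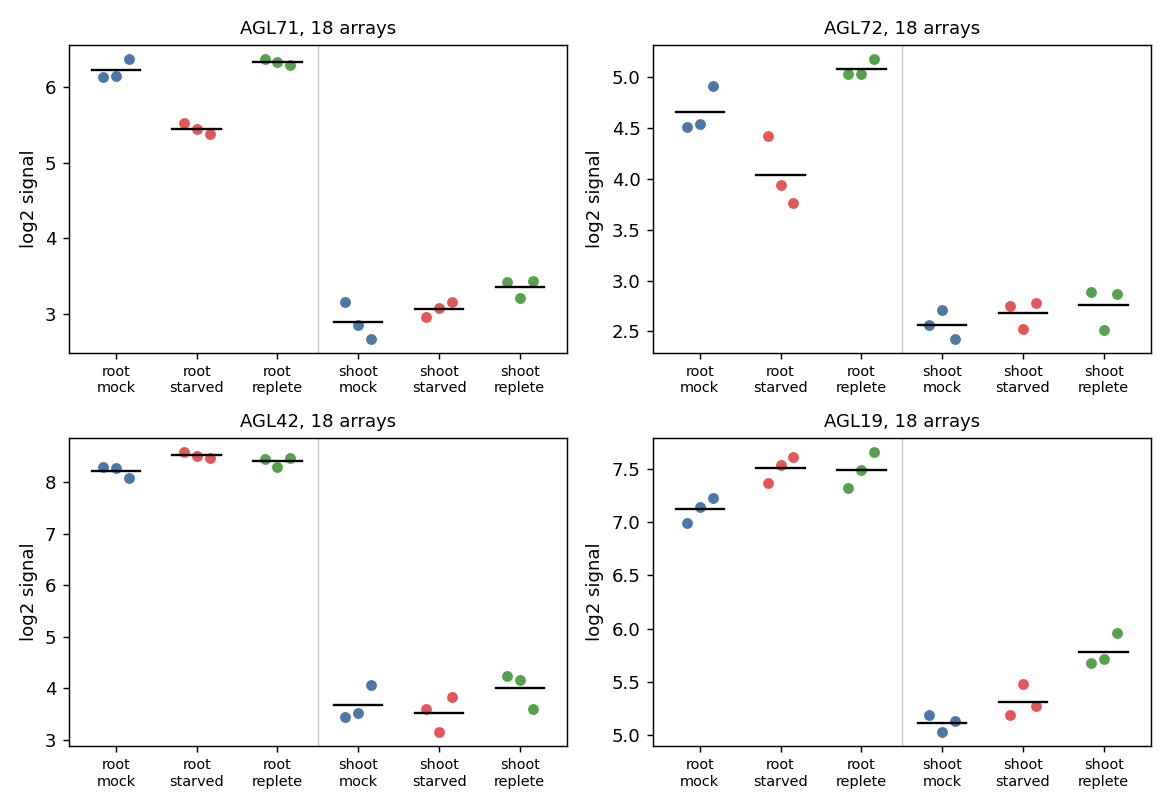
Log2 signal of AGL71, AGL72, AGL42 and AGL19 on each of the 18 arrays; points are arrays, bars are group means (n = 3), and the vertical scales differ and do not start at 0. AGL71 and AGL72 are lowest in starved among the root groups (5.38 to 5.53 and 3.76 to 4.42), AGL42 and AGL19 are not, and all 4 genes are higher in roots than in shoots.

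Of 5 root MADS-box genes listed from other clades, AGL16 and AGL21 were measured, and neither was called in the response or recovery of either organ, with 1, 1, 0 and 1 at an unadjusted p under 0.05 in the root response, root recovery, shoot response and shoot recovery. In mock plants AGL21 was higher in roots by 4.89 ± 0.13. The root responses of AGL16 and AGL21 were -0.22 ± 0.14 (adjusted p = 0.393) and -0.27 ± 0.13 (adjusted p = 0.211), and without root starved replicate 3 they were -0.37 ± 0.14 (adjusted p = 0.0957) and -0.14 ± 0.12 (adjusted p = 0.54). Of 4 probe-sets for 3 of 28 floral and other MADS-box genes (AGL18, AGL24 and AGL79), none passed in the response or recovery of either organ, with 3, 2, 0 and 0 at an unadjusted p under 0.05 in the root response, root recovery, shoot response and shoot recovery. The shares of all probe-sets at that p are those given above for the Aux/IAA genes. The probe-sets of AGL79, picked here from their values, had root responses of 0.64 ± 0.18 (adjusted p = 0.0326) and 0.94 ± 0.21 (adjusted p = 0.00853). AGL18 had a root recovery of 0.69 ± 0.13 (adjusted p = 0.0011), which passed without root starved replicate 3 (0.845 ± 0.12, adjusted p = 7.99e-05).

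No measured neighbour of IAA31 was called. Of the 5 genes on each side of IAA31 on chromosome 3 in the RefSeq annotation, 4 had a probe-set of their own (BSH, HYH, AT3G17620 and CHX19). They had 0 calls in the response or recovery of either organ. An unadjusted p under 0.05 was seen for 1, 2, 1 and 1 in the root response, root recovery, shoot response and shoot recovery. Over all probe-sets the shares at that p were 23.1%, 37.9%, 17.2% and 23.6%. Around AGL71, 7 of 10 were measured. AGL72 rose and AT5G51890 fell (-1.49 ± 0.14, adjusted p = 1.26e-06) in the root recovery, where 5.12% of all probe-sets were called. None was called in the root response, shoot response or shoot recovery, where 2, 1 and 2 had an unadjusted p under 0.05, beside the shares just given.

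Of 8 other regulators the study named with the pair in roots, AT2G33710, an AP2/ERF gene, was the only 1 with a probe-set of its own here. Its root signal was 2.91, 2.79 and 3.15 in mock, 4.48, 4.49 and 4.48 in starved, and 3.11, 2.63 and 2.68 in replete replicates 1 to 3. The starved arrays were far above the others, by 1.53 ± 0.13 in the response and with a recovery of -1.68 ± 0.13. Like the pair it was chosen on these root arrays, and these values are a description. In shoots its response was -0.01 ± 0.13 (adjusted p = 0.987) and its recovery 0.26 ± 0.13 (adjusted p = 0.225).

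The genes most like each of the pair were ranked by the root mean square difference of the 6 group means, each gene centred on its own mean, among probe-sets given to 1 gene. For IAA31 the 5 nearest were AT3G43930 (0.067), AT2G27440 (0.080), AT2G24040 (0.081), PRA1.G1 (0.083), named for a family of membrane-traffic proteins, and AT3G08670 (0.084), against a median of 0.409 over all genes. Their root responses were 0.66, 0.56, 0.53, 0.79 and 0.40, and their root recoveries -0.81, -0.60, -0.63, -0.97 and -0.73, in that order, beside 0.59 and -0.82 for IAA31, with SE from 0.10 to 0.17. Because these genes were chosen for their likeness on the same arrays, their calls are a description and no test of that likeness. Of these 5 genes, 1 was called in the root response (PRA1.G1), beside 2.26% of all probe-sets. In the root recovery 3 were called (AT2G24040, PRA1.G1 and AT3G08670), beside 5.12%. These calls shifted without root starved replicate 3. PRA1.G1 was then not called in the response nor AT3G08670 in the recovery, and AT3G43930 was called in both. Their shoot responses ran from -0.06 to 0.08, beside 0.15 for IAA31.

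For AGL71 the 5 nearest were AT3G44840 (0.073), AT1G61080 (0.120), AT4G18340 (0.122), AT1G55240 (0.150) and AT3G26760 (0.167), against a median of 1.473. Their root responses were -0.96, -0.90, -0.71, -0.40 and -0.68, their root recoveries 0.96, 0.76, 1.11, 0.65 and 0.66, and their differences between mock roots and mock shoots 3.35, 3.54, 3.25, 3.00 and 3.00. The SE of these ran from 0.12 to 0.42. In the root response and the root recovery 0 of the 5 were called, beside 2.26% and 5.12% of all probe-sets, again a description. No Aux/IAA gene was among the 5 nearest to IAA31 and no MADS-box gene among the 5 nearest to AGL71. IAA31 and AGL71 differed from each other by 1.285 on this measure.

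**Figure D5:**
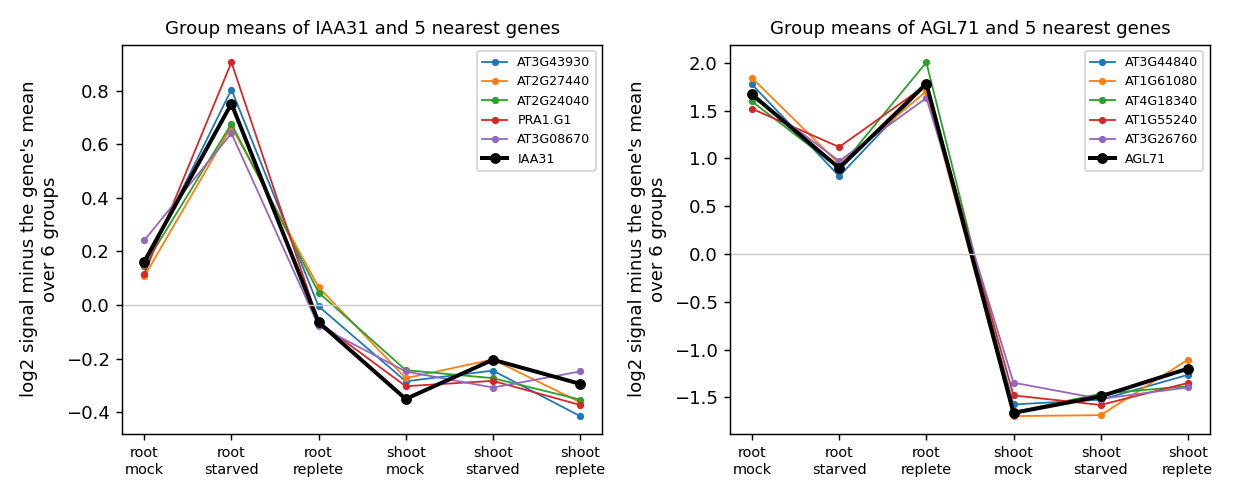
Group means of log2 signal (n = 3 arrays), each gene centred on its own mean over the 6 groups, for IAA31 and its 5 nearest genes (left) and AGL71 and its 5 nearest genes (right); the genes were chosen for this likeness and the panels have different vertical scales. Group means of the IAA31 set are highest in starved roots. Those of the AGL71 set are above 0 in all root groups and lowest of these in starved roots. In the root response and recovery 0 of the 5 genes near AGL71 were called, beside 2.26% and 5.12% of all probe-sets.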

How the data were processed

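Total RNA of 18 samples was hybridised to ATH1 arrays. The authors deposited log2 values from affy, whose version no source used here names. Their steps were a background correction, then quantile normalization over arrays, then a median-polish summary per probe-set. Quantile normalization gives the probe values of all arrays the same distribution before the summary, so each value is relative to the rest of its array. The summarised probe-set values had array medians from 5.88 to 5.98. Of 22810 probe-sets (64 controls), the platform table gave 13513 to 1 gene, 503 to several and 8794 to none; 13436 of the 13513 matched RefSeq names. No sequences were used, and RefSeq coordinates served only to find the neighbours of the pair.

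limma 3.58.1 in R 4.3.3 fitted 1 mean per group over all 18 arrays (12 residual degrees of freedom). Two-sided p-values were Benjamini-Hochberg adjusted over all probe-sets per contrast and called at 0.001, and SE and intervals come from this fit. The study's methods state a Bonferroni correction, tried as an alternative. The study's counts of initial positive and initial negative root genes lie close to the Benjamini-Hochberg counts here, and the Bonferroni calls here are far fewer. The number of arrays limits the precision, and each p-value sets a group difference against limma's moderated spread between arrays within groups. No 2 arrays were identical. The members and lists were chosen with earlier results of these data known. Named genes were the pair, their closest relatives, list genes that passed, regulators the study named, the 5 nearest profiles, and the ends of ranges or counts of few, which were picked from their values.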

Additional observations from a re-analysis of the deposited data

Results flagged for a closer look

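AGL71 had root and shoot responses of opposite sign. Every starved root array was below the mock root mean, with a response of -0.77, and every starved shoot array was above the mock shoot mean, with a response of 0.173 (adjusted p = 0.495 by limma). The root response minus the shoot response was -0.94 ± 0.16, given with no p-value because the gene was chosen on the root arrays. Mock and starved shoots overlapped, at 2.67 to 3.15 and 2.96 to 3.16. Leaving out 1 array moved the shoot response from 0.063 (without shoot mock replicate 3) to 0.303 (without shoot mock replicate 1). Without shoot mock replicate 3 the mock mean was 3.00, and starved replicate 1 (2.96) was below it.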

How the results depend on the processing

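The pair gave 6 tested results, all in shoots and none past the threshold, and each stayed there under the alternatives run (5 for IAA31, 6 for AGL71) and the 18 fits that each left out 1 array. Without shoot replete replicate 3, IAA31 in replete minus mock shoots changed sign, to -0.017 (from -0.017 to 0.128 over the left-out arrays). Mock roots minus mock shoots for IAA31 ran from 0.48 to 0.563 over the left-out arrays and was 0.419 after centring on 8 reference genes. Quantile normalization within each organ moved the IAA31 root recovery to -0.701, and the cause was not tested. IAA31 is absent from the fit of the 18248 brighter probe-sets.

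The Bonferroni threshold called 125 probe-sets in the root response, 165 in the root recovery, 4 in replete minus mock roots, 33 in the shoot response, 42 in the shoot recovery, 2 in replete minus mock shoots and 4976 between organs, against 515, 1169, 15, 91, 161, 5 and 9744. Arrays of 1 organ alone gave 209, 437, 2, 32, 41 and 0 for the first 6, with fewer residual degrees of freedom. Leaving out 1 array gave 274 to 654, 571 to 1529, 4 to 57, 47 to 155, 67 to 275 and 0 to 6. Without dim probe-sets, replete minus mock shoots gave 2.

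Replicate numbers are shared between groups. Within an organ, deviations of same-numbered arrays had correlations from -0.113 to 0.454 (median 0.16), with 10 of 18 pairs over 0.1. Between organs they ran from -0.083 to 0.257 (median 0.09), with 10 of 27 pairs over 0.1. The study's methods name no pairing, so the main fit had none, and a block on replicate number within each organ was an alternative. Whether same-numbered arrays shared a batch was not tested. With the replicate block, replete minus mock gave 8 calls in roots and 10 in shoots, and no tested result of the pair passed. Under Bonferroni the root recovery calls of AGL72 (adjusted p = 0.125), EXPA7 (0.338) and LHCB4.1 (0.0177) were lost, that of LHCB4.1 also with root arrays alone (0.00235) and that of EXPA7 also under the block (0.00109).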
